A study of Mus musculus with 132 samples.

Results

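The data compared hematopoietic progenitor cells (HPCs) that lack a CTCF site beside the distal promoter of Runx1 with wild-type HPCs, by poly(A)-minus RNA-seq. All libraries labelled as day 7 CD41 cells of these genotypes were taken, 3 of P1-CTCF-KO and 4 of wild-type, which makes 7 of the 23 RNA-seq libraries in the count table and 7 of the 132 samples of the series. Both groups came from E14-TG2a, a male mouse embryonic stem cell line of the 129/Ola strain. They were differentiated in defined serum-free culture with BMP4, Activin-A, SCF and VEGF, and by the study's methods also bFGF. By the study's methods, Flk1+ mesoderm was sorted at day 4 and CD41+ CD45- Ter119- cells at day 7. P1-CTCF-KO cells carry a homozygous CRISPR/Cas9 deletion of the CTCF site near the P1 promoter, and wild-type cells carry the intact site.

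Each P1-CTCF-KO library came from its own clone, E7.1, E7.2 and E9.1. The study traces its P1-CTCF-KO sub-clones to fewer separate targeting events than there are clones here, so some of these must share an event. Which of them do was not read from the files. Among wild-type libraries C8.1 and C6.1 each came from their own clone, whereas B9.3 is 1 clone that gave a pair of libraries (B9.3 and B9.3-2). The series also holds mesoderm of the same clones and HPCs of P2-CTCF-KO, which lack a CTCF site near the proximal promoter. The P2-CTCF-KO HPCs entered the main fit of 12 HPC libraries, which set the fold changes, intervals, p-values and CPM scaling. Otherwise these mesoderm and P2-CTCF-KO libraries were used here only where named.

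RUNX1 is a DNA-binding transcription factor that works with its partner CBFB and is required for blood cells to emerge from hemogenic endothelium. Mouse Runx1 has a distal promoter, P1, and a proximal promoter, P2, which give transcripts with different first exons. CTCF binds a long sequence motif and, together with cohesin, holds the ends of chromatin loops, so that the removal of 1 site can change which sequences meet inside a domain.

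The site that the deletion removes is shown here because the whole comparison rests on it. The CTCF peak called in 416B cells, a mouse blood progenitor line, spanned chr16:92828270-92828500 of the mm9 build, 231 bp in all. It lay in intergenic sequence from 1959 to 2189 bp upstream of the P1 start at position 92826311, while the P2 start was at position 92697573. A chromatin accessibility (ATAC-seq) peak of HPCs labelled wild-type, at chr16:92828412-92828480 and 69 bp long, lay inside it. By the study's methods, its ATAC-seq cells came from a derivative of the same stem cell line. That derivative carries a reporter at Runx1 and an enhancer reporter in the Col1a1 locus. The peak's sequence is printed 5′ to 3′ on the minus strand, the strand of Runx1. Capitals mark the reverse complement of the core CTCF motif letters AGGNGGC, where N is any base. The extent of the deletion in each clone was not read from the files.
P1-proximal CTCF peak: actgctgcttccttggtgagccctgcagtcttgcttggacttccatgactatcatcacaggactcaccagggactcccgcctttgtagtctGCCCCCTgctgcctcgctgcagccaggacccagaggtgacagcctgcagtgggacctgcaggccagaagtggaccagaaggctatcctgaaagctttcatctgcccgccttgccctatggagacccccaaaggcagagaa
Those letters occurred 1 time in the peak when both strands were searched, starting at base 92 of the printed sequence and reading on the strand opposite to Runx1. The same letters were present in 34.6% of the windows of 231 bp placed on all 44513 CTCF peaks of 416B cells.

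Total counts ran from 8293575 to 10733304 in the wild-type and from 8594364 to 10564868 in the P1-CTCF-KO libraries. Ribosomal RNA and entries mapped to several loci took 87.8% to 89.1% of the counts in these 7 libraries, and the other genes shared the rest. The 7 libraries carried HPC and blood markers, and markers of several blood lineages beside them. Summed over 7 HPC and blood markers, the level was 115 to 188 CPM (a gene's counts relative to the scaled library total) in wild-type and 122 to 250 CPM in P1-CTCF-KO libraries, and the 5 megakaryocyte markers reached 50.5 to 129 and 75.8 to 193 CPM. The 6 erythroid markers reached 59.7 to 150 CPM in wild-type and 52.3 to 208 CPM in P1-CTCF-KO libraries. In the same order, 5 endothelial markers reached 12.8 to 30.1 and 20.7 to 29.8 CPM, and 4 leukocyte markers 1.88 to 5.72 and 3.38 to 7.56 CPM. Of 3 markers of undifferentiated cells, Pou5f1 and Sox2 were at 0 counts in every library and Nanog had 1 count in wild-type B9.3. Of 6 cardiac and mesenchyme markers, Nkx2-5 and Myl7 were at 0 in every library, but the summed level was 64.4 CPM in wild-type B9.3 and 21.1 in P1-CTCF-KO E9.1 against 1.49 to 5.76 in the other 5 libraries, mostly from Col1a1 and Col3a1. CPM here is scaled by TMM, a factor per library that sets most genes to an equal level. That factor was 0.993 to 1.2505 in wild-type libraries and 0.587, 0.919 and 0.906 in E7.1, E7.2 and E9.1, so the scaling itself separated the groups.

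No gene was called changed between P1-CTCF-KO and wild-type HPCs. Of 7422 genes tested with edgeR's quasi-likelihood test, 0 (0%) passed an adjusted p under 0.05 with a change over 2-fold, and the smallest adjusted p was 0.910. At an unadjusted p under 0.05, 99 genes (1.33%) were higher and 161 (2.17%) lower in P1-CTCF-KO cells. DESeq2 called 0 genes, with 89 higher and 109 lower at that unadjusted limit, and limma-voom called 0, with 114 higher and 58 lower. With library totals in place of TMM, 0 genes were called again, but 9 were higher and 1126 lower at the unadjusted limit, as the median of all genes moved by -0.52 on the log2 scale. The libraries did not overlap between the groups for 207 genes (2.79%) that were higher and 308 (4.15%) that were lower. The spread behind these p-values came from all 12 HPC libraries, 5 of them of P2-CTCF-KO. Clone B9.3 gave 2 of the 4 wild-type libraries, and the P2-CTCF-KO clones D10.1 and D2.1 gave a pair each. The study describes its libraries as independent experiments, and these p-values measure the spread between such libraries and clones.

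Runx1, the gene beside the deleted site, spans chr16:92601710-92826319 on the minus strand. It had 1084, 587, 879 and 1622 counts in wild-type B9.3, B9.3-2, C6.1 and C8.1, which is 89.0, 71.4, 78.6 and 127 CPM. In P1-CTCF-KO E7.1, E7.2 and E9.1 it had 803, 703 and 1094 counts, which is 159, 72.5 and 133 CPM. E7.1 and E9.1 lay above every wild-type library, E7.2 lay among the lowest of them, and the groups overlapped. The group means were 91.5 ± 24.8 CPM (SD, n = 4) and 122 ± 44.6 CPM (SD, n = 3). The log2 fold change was 0.41 with a 95% interval from -0.45 to 1.28 (edgeR adjusted p = 0.910). In folds this interval ran from 0.730 to 2.42, so a fall to under 0.730 of the wild-type level or a rise over 2.42-fold lay outside it. The value was 0.17 without E7.1 and 0.67 without E7.2, and it turned to -0.18 with library totals, where the interval ran from 0.537 to 1.45 of the wild-type level. These counts cover the exons and introns of the whole gene, so the share of P1 and P2 transcripts is not in them.

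**Figure D1:**
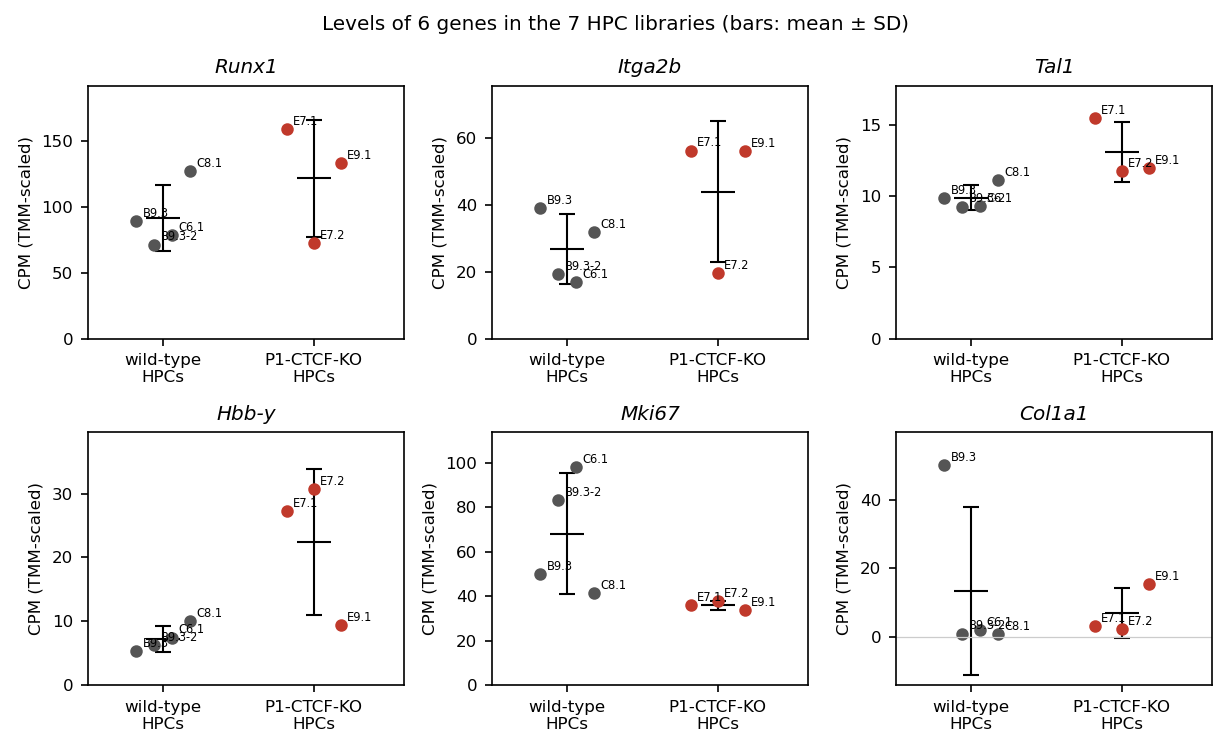
Level of named genes in each library, in TMM-scaled CPM on linear axes, with wild-type HPCs (n = 4) on the left and P1-CTCF-KO HPCs (n = 3) on the right; bars show the mean and SD. For Runx1 the P1-CTCF-KO libraries E7.1 (159) and E9.1 (133) lie above all wild-type libraries and E7.2 (72.5) lies among them, and for Col1a1 a single wild-type library, B9.3, stands at 50.1.

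No neighbour of Runx1 passed the test. Of 40 genes that overlap a window centred on Runx1, chr16:91351710-94076319, 15 were tested, and the 25 others held at most 46 counts summed over the 7 libraries, 12 of them 0. Of the 14 tested neighbours 3 had a log2 fold change above 0 and 11 below, with a median of -0.22 beside -0.01 over all genes tested, and 0 had an unadjusted p under 0.05. Itsn1, which codes for a scaffold protein of endocytosis, had 24.9, 11.9, 12.6 and 25.9 CPM in the wild-type libraries and 52.0, 19.9 and 40.6 in E7.1, E7.2 and E9.1. E7.1 and E9.1 were again the high libraries and E7.2 lay within the wild-type range. Its log2 fold change was 0.99 with an interval from -0.33 to 2.3. Cryzl1 had the smallest p of the neighbours, with 2.80 to 4.43 CPM in wild-type and 6.55, 4.02 and 5.85 CPM in P1-CTCF-KO libraries and a log2 fold change of 0.50 from -0.11 to 1.11. Son, an RNA-binding splicing factor, was the most tightly bounded, with a log2 fold change of -0.09 from -0.51 to 0.33. It was at 19.1 to 26.8 CPM in wild-type and 22.2 to 23.0 CPM in P1-CTCF-KO libraries. The interval stayed within 2-fold for 4 of the 14 neighbours. Rcan1, an inhibitor of calcineurin, and Dop1b had log2 fold changes of -0.23 and 0.52 with intervals that reached past 2-fold.

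**Figure D2:**
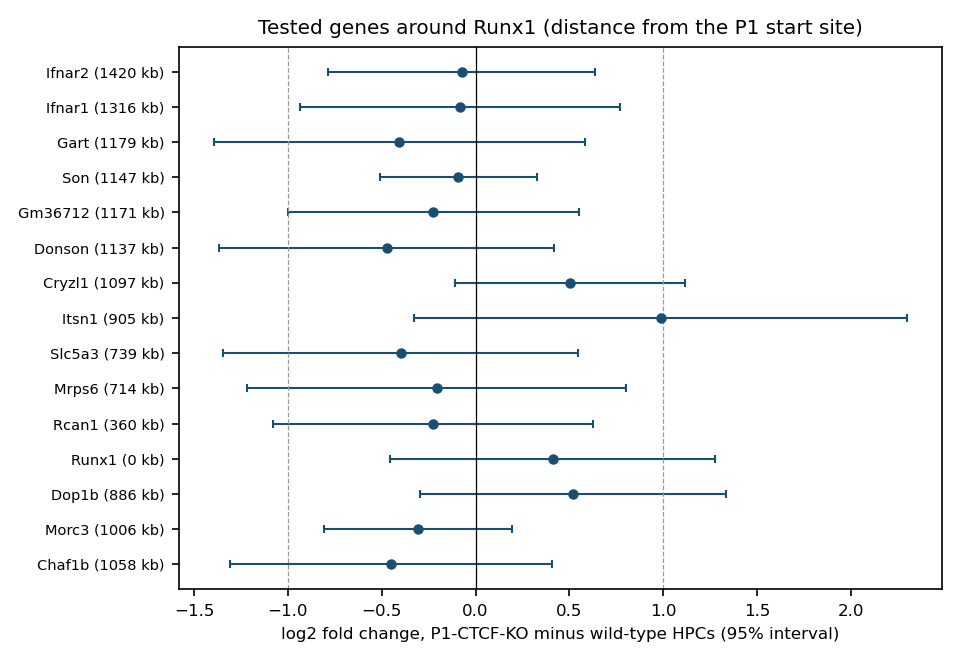
Log2 fold change with its 95% interval for the 15 tested genes in and around Runx1, ordered along the chromosome. All 15 intervals include 0, 3 of the 14 neighbours lie above 0, and Itsn1 at 0.99 lies farthest from it.

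Megakaryocyte genes and blood transcription factors leaned towards higher values, but no list held a gene past the adjusted threshold. Lists of known genes are described here by how many members lay above or below 0 and by their median log2 fold change, beside 3655 above and 3767 below and a median of -0.01 for all 7422 genes. With library totals, where the median of all genes was -0.52, only the megakaryocyte and interferon lists kept a median above 0, so that every other higher median named here turned below 0 in that fit. Some lists share members, so their counts are not separate. Nfe2 is in the megakaryocyte and blood factor lists, Meis1 in the blood factor and plotted marker lists, and Epb41 in the erythroid and RUNX1 target lists. RNA from fewer cells of a type and less RNA per cell cannot be told apart in such bulk libraries.

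Megakaryocyte and platelet genes leaned higher, with no member past the test. All 25 tested members, of 26 in the table, lay above 0 (20 with library totals), with a median of 0.73, and 0 had an unadjusted p under 0.05. Itga2b, which codes for CD41 itself and so was used for the sort, had 39.1, 19.2, 16.8 and 31.9 CPM in wild-type B9.3, B9.3-2, C6.1 and C8.1 against 56.2, 19.6 and 56.0 CPM in E7.1, E7.2 and E9.1. Its partner Itgb3 had 108, 42.1, 47.2 and 106 CPM and 161, 65.1 and 166 CPM in the same order. In both genes E7.1 and E9.1 were above every wild-type library, while E7.2 lay between the lower and the higher pair of wild-type libraries. Vwf, which carries platelets to injured vessel walls, had 58.3, 17.03, 19.5 and 49.4 CPM in wild-type and 81.4, 28.7 and 79.8 CPM in P1-CTCF-KO libraries. Thbs1, a secreted platelet glycoprotein, had a log2 fold change of 0.55 with an interval from -1.09 to 2.19.

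The list's median deviation from the wild-type mean was 0.65, -0.71, -0.58 and 0.63 in wild-type B9.3, B9.3-2, C6.1 and C8.1 against 1.22, -0.08 and 1.17 in E7.1, E7.2 and E9.1. Wild-type libraries thus fell into a higher and a lower pair, and the 2 libraries of clone B9.3 stood on opposite sides. Of the 25 members, 23 were above all wild-type libraries in E7.1 and 23 in E9.1, against 1 in E7.2, where 24 lay within the wild-type range. Of all 7422 genes, 26.5% were above all wild-type libraries in E7.1, 22.4% in E9.1 and 15.2% in E7.2. Only Nfe2 of the 25, a transcription factor of platelet formation, had all P1-CTCF-KO libraries above all wild-type ones, beside 2.79% of all genes. It was at 6.55, 4.33 and 5.12 against 2.59 to 3.84 CPM. The lean held when any 1 library was left out, with medians of 0.55 to 1.07 and at least 24 of 25 members above 0. With library totals, 20 of 25 stayed above 0 and the median was 0.13. The intervals were wide, since 0 of the 25 stayed within 2-fold and a rise over 2-fold was left out for 0 of them, whereas a fall over 2-fold was left out for 15.

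Blood transcription factors lay above 0 in 20 of 24 tested cases, of 33 in the table, with a median of 0.35. The library medians were 0.11, -0.06, -0.12 and 0.19 in wild-type B9.3, B9.3-2, C6.1 and C8.1 against 0.50, 0.26 and 0.40 in E7.1, E7.2 and E9.1, which did not overlap. Tal1, which founds the blood programme, had 9.85, 9.25, 9.302 and 11.1 CPM in wild-type and 15.5, 11.8 and 11.95 CPM in P1-CTCF-KO libraries. Its libraries did not overlap either, with a log2 fold change of 0.40 from -0.24 to 1.04. Ikzf2, an Ikaros family factor, was at 10.5 to 15.6 CPM and at 16.6 to 18.2 CPM, with a log2 fold change of 0.45 from -0.08 to 0.97. Fli1, an ETS factor of megakaryocyte and endothelial genes, had 54.4, 31.0, 37.6 and 82.1 CPM in wild-type against 95.3, 52.4 and 72.2 CPM. Meis1, a homeobox partner of Hox proteins, had a log2 fold change of 0.63 from -0.77 to 2.03. Klf1, the erythroid factor, had -0.29 from -1.49 to 0.90, and Ikzf1 had -0.11 from -0.81 to 0.59. With library totals this list turned to 4 of 24 above 0 and a median of -0.21, above the -0.52 of all genes. In its 7 fits without a library, the median stayed between 0.26 and 0.43.

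Genes that the study lists as RUNX1 targets, chosen by it for being lower in P2-CTCF-KO mesoderm, lay above 0 for 26 of 32 tested members with a median of 0.35. The list was chosen on other libraries of the same series and is not independent evidence of a direction. Ubash3b, a phosphatase that dampens receptor signalling, had 89.2, 40.8, 66.9 and 127 CPM in wild-type and 182, 97.6 and 176 CPM in P1-CTCF-KO libraries, with a log2 fold change of 0.91 from -0.41 to 2.22. The median of this list also turned with library totals, to -0.19 with 8 of 32 above 0. Of the 11 tested lineage markers that the study plotted, 10 lay above 0 with a median of 0.40 (-0.15 with library totals), and Etv6, an ETS repressor, had a log2 fold change of 0.80 from -0.31 to 1.91. Across the RUNX family, its partner and corepressors, 4 of 7 lay above 0, and 1 of 7 with library totals, and the median of 0.14 turned to -0.33 without E7.2. Runx1t1, an ETO corepressor, was at 6.90 to 7.80 CPM in wild-type libraries and at 3.97, 7.02 and 1.46 CPM in E7.1, E7.2 and E9.1, with a log2 fold change of -0.82 from -1.75 to 0.11.

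**Figure D3:**
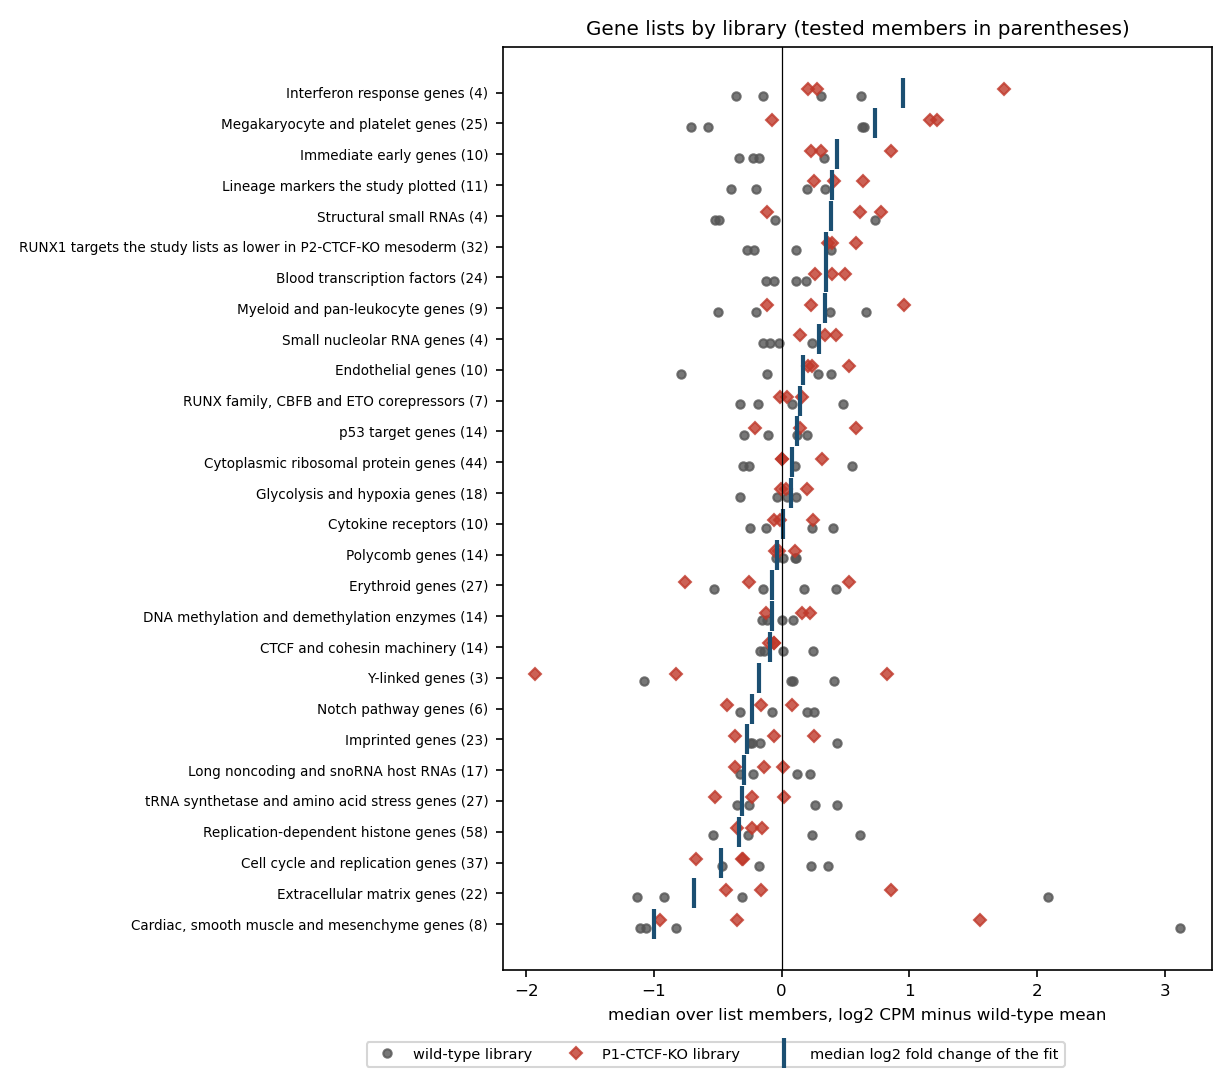
Median over the tested members of each gene list of log2 CPM minus the wild-type mean, per library (grey circles, 4 wild-type; red diamonds, 3 P1-CTCF-KO), with the median log2 fold change of the fit as a blue tick. Blood transcription factors are the list whose red diamonds all lie to the right of all grey circles, and in the cardiac and extracellular matrix lists a single wild-type library lies far to the right.

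Erythroid genes lay on both sides of 0. Of 27 tested members 8 lay above 0 and 19 below, with a median of -0.07, and 1 had an unadjusted p under 0.05. That gene was Hbb-y, an embryonic beta-like globin, at 5.25, 6.21, 7.42 and 9.96 CPM in wild-type and 27.2, 30.8 and 9.39 CPM in E7.1, E7.2 and E9.1, a log2 fold change of 1.63 from 0.26 to 3.01 (edgeR adjusted p = 0.910). E7.1 and E7.2 were high and E9.1 lay within the wild-type range, so its pattern over clones differed from that of Itga2b. Of the members, 11 were above all wild-type libraries in E7.2, beside 15.2% of all genes there, whereas 15 were below all of them in E9.1, beside 20.4% of all genes. The median turned to 0.28 without E9.1, with 18 of 27 above 0, and to 0.10 without B9.3-2. The list median in the libraries ran from -0.53 to 0.43 in wild-type and from -0.76 to 0.53 in P1-CTCF-KO cells. Epb41, of the red cell membrane skeleton, had 73.1 to 111 CPM in wild-type and 170, 109 and 112 CPM in P1-CTCF-KO libraries. Genes of white cells and endothelium were sparse. Of 9 tested myeloid and pan-leukocyte genes 7 lay above 0 with a median of 0.34, and of 10 endothelial genes 7 with a median of 0.17, which turned to -0.15 and -0.36 with library totals. The endothelial median also turned to -0.16 without C6.1, with 5 of 11 above 0, and to -0.02 with no filter on low counts. Pecam1, an adhesion protein of both endothelium and early blood, had 5.81 to 10.12 CPM in wild-type and 7.81 to 10.9 CPM in P1-CTCF-KO libraries. Cytokine receptors had 6 of 10 above 0 and a median of 0.01 (-0.50 with library totals, -0.31 without E7.2), and Notch pathway genes 1 of 6 and -0.23.

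Genes of cell division leaned towards lower values. Of 37 tested cell cycle and replication genes 7 lay above 0 and 30 below, with a median of -0.47, and 5 were lower at an unadjusted p under 0.05 against 2.17% of all genes. These were Cdc6, which loads the replicative helicase, Mcm2 and Mcm7, subunits of that helicase, Aurka, a mitotic kinase, and Cenpf, a kinetochore protein, with log2 fold changes from -1.40 for Cdc6 to -0.79 for Mcm7. Mki67, the proliferation antigen and the most abundant member, had 49.9, 83.3, 98.3 and 41.3 CPM in wild-type B9.3, B9.3-2, C6.1 and C8.1 against 36.1, 37.8 and 33.8 CPM in P1-CTCF-KO libraries. All 3 P1-CTCF-KO libraries were below the lowest wild-type one, and the log2 fold change was -0.93 from -1.90 to 0.05. Top2a, which untangles replicated DNA, was at 14.7 to 25.8 CPM against 12.9 to 14.1 CPM, again with no overlap, while Ccnd3, a cyclin of the G1 phase, had a log2 fold change of 0.90 from -0.29 to 2.08. Pcna, the sliding clamp of replication, had a log2 fold change of 0.00 with an interval from -0.93 to 0.93.

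The median deviation of the cell cycle list was lower in wild-type B9.3 and C8.1 than in B9.3-2 and C6.1, the reverse order of the megakaryocyte list, and C8.1 overlapped with the P1-CTCF-KO libraries. The 2 lists thus moved in opposite directions among wild-type libraries as well, and the part of one in the other was not tested. A lower median was kept in all 7 fits without a library, from -0.65 to -0.32. With library totals it was -0.96, beside -0.52 for all genes in that fit. Of the 37 genes, a rise over 2-fold was left out for 32 and a fall over 2-fold for 9. Replication-dependent histone genes, whose mRNAs lack poly(A) tails and so are retained by this library type, had 12 above 0 and 46 below of 58, with a median of -0.33 and 0 at an unadjusted p under 0.05. H1f4, a linker histone, had 36.4, 84.3, 62.5 and 28.2 CPM in wild-type and 39.5, 30.6 and 31.5 CPM in P1-CTCF-KO libraries, where the groups overlapped through B9.3 and C8.1. Without B9.3-2 the histone median moved to -0.11. Many of these genes are near-identical copies, whose reads the authors' counting could split.

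**Figure D4:**
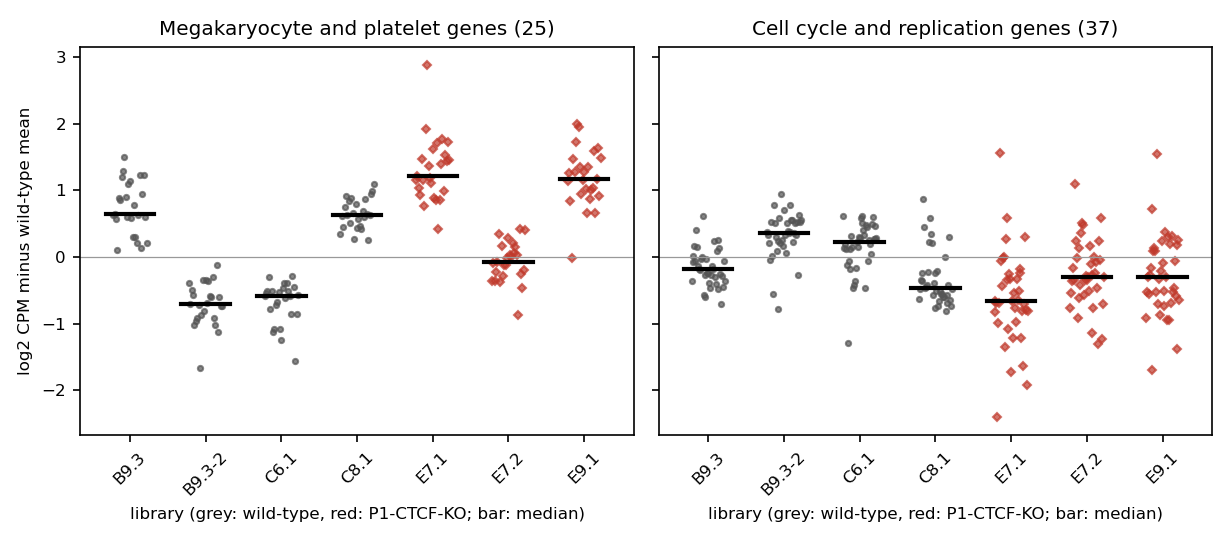
Each tested member of the megakaryocyte list (25) and of the cell cycle list (37) in each library, as log2 CPM minus the wild-type mean of that gene, with the list median as a black bar. The megakaryocyte median lies above 0 in B9.3, C8.1, E7.1 and E9.1 and below it in B9.3-2 and C6.1, and that of the P1-CTCF-KO library E7.2 lies near 0.

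Genes of protein synthesis split. Of 27 tRNA synthetase and amino acid stress genes 5 lay above 0 and 22 below, with a median of -0.31, and 2 were lower at an unadjusted p under 0.05, among them Phgdh, the first enzyme of serine synthesis, with a log2 fold change of -1.57. Of 44 cytoplasmic ribosomal protein genes 23 lay above 0, with a median of 0.08 (-0.44 with library totals), and 3 were higher and 1 lower at that limit. Fau, which codes for a ribosomal protein fused to a ubiquitin-like one, was 1 of the 3 higher. It was listed at 30349 to 40987 CPM in wild-type and 90890, 45956 and 50028 CPM in E7.1, E7.2 and E9.1. This is an entry at several loci with a listed span of 140692022 bp. Its counts may hold reads of other genes, so they are not read as the level of Fau. Rpl13a, a protein of the large subunit, had 1.89, 2.68, 2.68 and 1.96 CPM in wild-type and 4.77, 5.68 and 4.15 CPM in P1-CTCF-KO libraries. Its log2 fold change of 1.09, from 0.57 to 1.61, did not pass adjustment. Ribosomal protein genes have many processed copies in the genome, so single values are uncertain. Their median turned to between -0.07 and -0.02 without E7.2, B9.3, C6.1 or C8.1.

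Of noncoding RNAs, 17 long noncoding and snoRNA host RNAs had 6 above 0 and a median of -0.29, although Malat1, the most abundant of them, had 690, 447, 464 and 761 CPM in wild-type and 888, 841 and 786 CPM in P1-CTCF-KO libraries. All P1-CTCF-KO libraries were above all wild-type ones for Malat1, with a log2 fold change of 0.50 from -0.25 to 1.26. Of 4 tested structural small RNAs 3 lay above 0, and 2 with library totals. Terc, the RNA template of telomerase, had 0.246, 0.730, 0.805 and 0.392 CPM in wild-type and 1.99, 1.75 and 1.10 CPM in P1-CTCF-KO libraries, a log2 fold change of 1.59 from 0.59 to 2.59 with an unadjusted p under 0.05. Scarna2, a guide of RNA modification in Cajal bodies, had a log2 fold change of 1.37 from 0.16 to 2.57, and all 4 tested small nucleolar RNA genes lay above 0 with a median of 0.30. Of these 4, Snord58b and Snora19 are entries at several loci, listed with spans of 44943576 and 35833562 bp. Their counts may hold reads of other genes, so they are not read as levels of these RNAs. The median of the 4 turned to -0.22 with library totals, and to -0.59 with no filter on low counts, where 41 of 110 lay above 0.

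The factors that act at CTCF sites had the highest share of genes bounded within 2-fold of the lists tested. Of 14 tested CTCF and cohesin genes 6 lay above 0 and 8 below, with a median of -0.09, and the interval stayed within 2-fold for 11 of them and within 1.5-fold for 5. Ctcf had 6.07, 8.76, 9.48 and 8.08 CPM in wild-type and 6.55, 6.398 and 4.39 CPM in P1-CTCF-KO libraries, a log2 fold change of -0.49 from -1.03 to 0.05, which reached 0.490 of the wild-type level, so that this gene was among neither the 11 nor the 5. Nipbl, the cohesin loader, had 0.10 from -0.29 to 0.49, and Wapl, which releases cohesin, 0.18 from -0.33 to 0.70. Of 14 tested Polycomb genes, which maintain gene silencing, 6 lay above 0, with a median of -0.03 (0.06 without C6.1, 0.02 without E9.1) and 9 intervals within 2-fold. Jarid2, a cofactor of Polycomb repressive complex 2, had 61.4, 29.7, 42.4 and 85.9 CPM in wild-type and 186, 57.9 and 95.4 CPM in P1-CTCF-KO libraries, a log2 fold change of 1.04 from -0.22 to 2.299. Cbx6, a Polycomb reader of methylated histones, was lower at an unadjusted p of 0.00774 (edgeR adjusted p = 0.910), with a log2 fold change of -1.42. Of 14 enzymes of DNA methylation 6 lay above 0, and 9 without E7.2, where the median of -0.07 turned to 0.17. Dnmt1, the maintenance methyltransferase, had 13.95, 19.1, 18.6 and 12.5 CPM in wild-type and 10.7, 11.1 and 12.4 CPM in P1-CTCF-KO libraries, with no overlap and a log2 fold change of -0.48 from -0.95 to -0.02.

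Other lists moved with single libraries. Genes of cardiac, smooth muscle and mesenchyme cells had 2 of 8 above 0 and a median of -0.998, and extracellular matrix genes 2 of 22 and -0.68. Col1a1, the main collagen of bone and skin, had 50.1, 0.973, 2.06 and 0.784 CPM in wild-type B9.3, B9.3-2, C6.1 and C8.1 against 3.18, 2.27 and 15.4 CPM in E7.1, E7.2 and E9.1. Fn1, fibronectin, had 76.1, 18.9, 7.96 and 4.86 CPM and 5.76, 11.6 and 17.6 CPM in the same order. Without B9.3 the medians turned to 1.62, with 6 of 6 above 0, and to 1.02, with 15 of 17 above 0. The wild-type library B9.3 thus set the direction of both. Of 4 tested interferon response genes, all lay above 0 with a median of 0.95, and 2 were higher at an unadjusted p under 0.05, among them Ifih1. Ifih1, a sensor of double-stranded RNA, had 0.365 to 1.15 CPM in wild-type and 9.13, 0.413 and 0.732 CPM in E7.1, E7.2 and E9.1. Without E7.1 the median was 0.16. Of 10 immediate early genes 8 lay above 0 with a median of 0.43, which turned to -0.07 with library totals, and Fosb, an AP-1 subunit, had 4.35, 1.83, 2.59 and 6.27 CPM in wild-type and 12.1, 4.85 and 7.68 CPM in P1-CTCF-KO libraries.

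Of 14 tested p53 targets 10 lay above 0, with a median of 0.13, which turned to -0.06 without E7.2. Of 18 glycolysis and hypoxia genes 11 lay above 0 with a median of 0.07 (-0.03 without E7.2, -0.05 without E9.1), and both of these lists turned below 0 with library totals. Of 23 imprinted genes 8 lay above 0 with a median of -0.27, which turned to 0.18 without B9.3, with 15 of 21 above 0. Uty, on the Y chromosome, had 10.01, 10.7, 9.21 and 15.4 CPM in wild-type and 15.9, 1.96 and 14.9 CPM in E7.1, E7.2 and E9.1, low in E7.2. The Y-linked genes Eif2s3y and Ddx3y were low in E7.1 too, at 0.993 and 0.794 CPM. They had 0.929 and 0.310 CPM in E7.2 and 3.54 CPM each in E9.1. In wild-type C6.1 they were at 0.805 and 0.716 CPM. No gene of the primitive streak, pluripotency or Hox lists had enough counts to be tested.

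The genes with the smallest p were mostly of low level. Among the 10 higher ones were Rpl13a, Wdr92, Smoc1, Terc, Rnf146, Bcap31, Gm7972, Xrcc4 and Slu7, and among the 10 lower ones Ears2, Mastl, Npcd, Yipf6, Gmcl1, Cntln, Zfp574, Dnttip2 and Tubgcp2. Rnf146, a ubiquitin ligase, had 2.46, 3.04, 2.95 and 2.74 CPM in wild-type and 4.96, 4.64 and 3.78 CPM in P1-CTCF-KO libraries, with a log2 fold change of 0.67 from 0.24 to 1.10. Xrcc4, of DNA end joining, had 2.35 to 3.04 CPM and 3.78 to 4.64 CPM. Mastl, a kinase of mitotic entry, had 2.22, 3.04, 2.95 and 2.74 CPM in wild-type and 0.993, 1.24 and 1.10 CPM in P1-CTCF-KO libraries, with a log2 fold change of -1.28 from -1.97 to -0.60. Tubgcp2, of the microtubule-nucleating gamma-tubulin complex, had 2.86 to 4.26 CPM and 1.79 to 1.96 CPM. These genes were picked by their p, and the adjusted p was 0.910 or more for each.

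The level and the span of a gene went with the lean. The share of genes above 0 was 38.1% of 1077 genes with a mean under 10 counts, 43.1% from 10 to 20, 46.8% from 20 to 50, 56.0% from 50 to 100, 70.9% from 100 to 500 and 82.9% of 129 genes with 500 or more. Among the 57 of these last that map to 1 locus, 52 lay above 0. The deviation from the wild-type mean in the 100 to 500 class was -0.01, -0.23, 0.01 and 0.22 in wild-type B9.3, B9.3-2, C6.1 and C8.1 against 0.31, 0.04 and 0.18 in E7.1, E7.2 and E9.1, so that it varied among wild-type libraries as well. By the span of the gene, 65 of 94 genes over 500 kb lay above 0 with a median of 0.27, and 400 of 669 from 150 to 500 kb with 0.12, against 791 of 1797 from 5 to 20 kb with -0.06. The medians of the chromosomes other than Y lay between -0.09 and 0.07, and that of chromosome 16, which holds Runx1, was -0.09 with 101 of 252 genes above 0. The classes over 500 kb and from 150 to 500 kb turned below 0 with library totals. With no filter on low counts, 4 of the 6 span classes turned the sign of their median. Leaving out 1 library brought the median of the class from 5 to 20 kb as high as 0.002. The part of level and span in the lean of the lists above was not tested.

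Genes that separate the stages leaned too. Within P2-CTCF-KO cells, which are in neither group compared here, 1963 of 7993 genes (24.6%) differed between HPCs and mesoderm. Of the 200 most significant of those higher in HPCs, 156 lay above 0 in P1-CTCF-KO against wild-type HPCs, with a median of 0.28, which turned to -0.25 with library totals, and 1 at an unadjusted p under 0.05. Of the 200 most significant lower ones, 81 had enough counts in HPCs, 31 of them lay above 0 and the median was -0.18, with 5 lower at that limit. Over the 200 higher genes, 114 were above all wild-type libraries in E7.1, 64 in E9.1 and 47 in E7.2, beside 26.5%, 22.4% and 15.2% of all genes. Of the 200 genes, 9 were above in all 3 libraries, beside 2.79% of all genes.

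The size of change that the data left out depended on the gene. From the 95% interval of each gene, which holds gene by gene and is not adjusted for their number, 639 of 7422 genes (8.61%) stayed within 1.5-fold, 3135 (42.2%) within 2-fold and 6509 (87.7%) within 4-fold of wild-type in both directions. A rise over 2-fold was left out for 4912 genes and a fall over 2-fold for 4813. The median gene was bounded at 2.14-fold. Within 2-fold the share was highest from 50 to 100 counts, where 68.1% of 1114 genes stayed within that limit, and it was lower for the 1077 genes under 10 counts, of which 5.57% did. From 500 counts on, 41.9% of 129 genes stayed within 2-fold, but within 1.5-fold the share was highest there, at 27.9% against 22.2% from 50 to 100 counts. Of blood transcription factors 8 of 24 stayed within 2-fold and 20 within 4-fold, of megakaryocyte genes 0 and 6 of 25, and of erythroid genes 1 and 24 of 27. Zfpm1, a cofactor of GATA factors, illustrates a bounded gene with a log2 fold change of 0.36 from -0.26 to 0.97, as does Stat5b, a cytokine signal transducer, with 0.24 from -0.18 to 0.65. Mecom, at 0 to 1.95 CPM, had an interval from -2.89 to 3.30, which left out little.

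**Figure D5:**
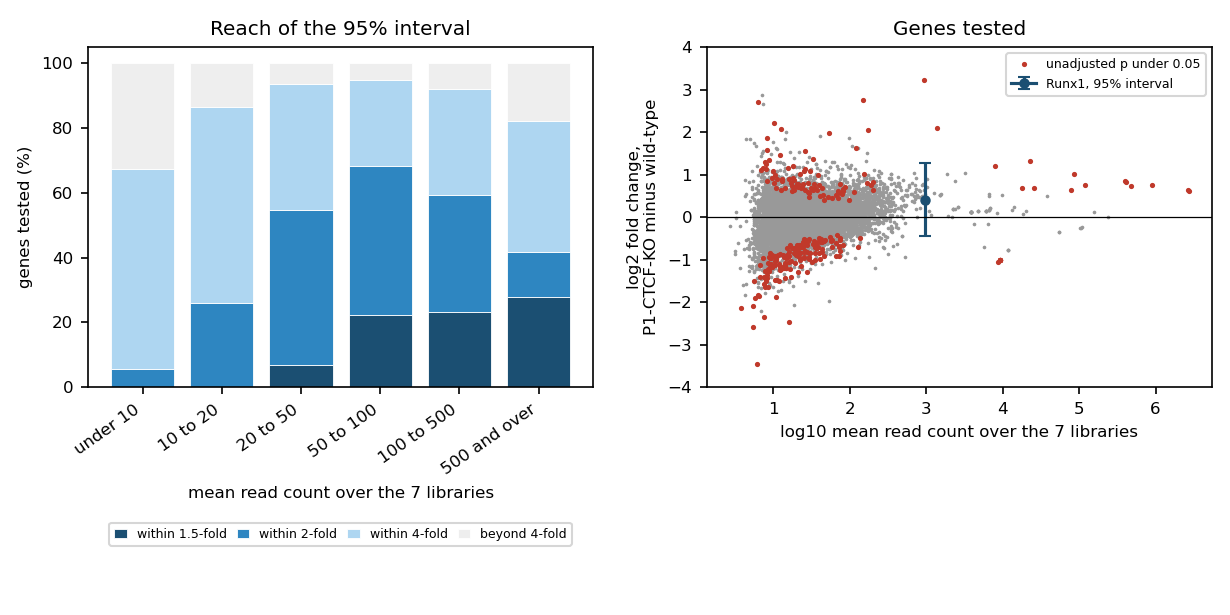
Left, percent of tested genes whose 95% interval stays within 1.5-, 2- and 4-fold of wild-type, in classes of mean read count over the 7 libraries. Right, log2 fold change of each tested gene against log10 mean read count, with unadjusted p under 0.05 in red and Runx1 with its interval in blue; 68.1% of genes from 50 to 100 counts and 5.57% of those under 10 stay within 2-fold.

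The same clones at the mesoderm stage gave no call either. In mesoderm 0 of 8778 genes (0%) were called by edgeR's quasi-likelihood test between P1-CTCF-KO and wild-type, with 168 at an unadjusted p under 0.05. The difference of the P1-CTCF-KO effect between HPCs and mesoderm was called for 0 of 9170 genes (0%), with 306 at that limit, and DESeq2 called 0, with 265. With the clone as a block the edgeR count was again 0, with 233. In the fit over both stages Runx1 had a log2 fold change of 0.38 in HPCs and -0.41 in mesoderm, and their difference was 0.80 with an interval from -0.73 to 2.32 (edgeR adjusted p = 0.999). When HPCs of P1-CTCF-KO and of P2-CTCF-KO were compared, 0 of 7422 genes (0%) were called, although 271 were higher and 379 lower in P1-CTCF-KO at an unadjusted p under 0.05 and the smallest adjusted p was 0.527. Runx1 was 0.72 higher on the log2 scale in P1-CTCF-KO than in P2-CTCF-KO HPCs, with an interval from -0.11 to 1.55. The comparisons of each genotype with wild-type share the wild-type libraries, and against them Runx1 had 0.41 in P1-CTCF-KO and -0.31 in P2-CTCF-KO HPCs.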

How the data were processed

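Per the labels and the study's methods, poly(A)-minus RNA was sequenced from directional libraries, and the authors aligned reads to mm9 with STAR and used featureCounts, after duplicate removal, to assign reads to genes, introns included. The deposited table holds these raw counts for 25146 entries, with 0 columns left out here. The annotation and strand setting of the counting are not given in the sources used here, so overlapping genes may share reads. The CTCF and ATAC peaks are positions that the authors called with MACS2.

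The test on counts was that of edgeR 4.0.16, run under R 4.3.3 (TMM, filterByExpr with a minimum count of 10, quasi-likelihood test, Benjamini-Hochberg adjustment), in 1 fit of the 12 HPC libraries of all 3 genotypes by genotype. A gene was called at an adjusted p under 0.05 and a change over 2-fold. Intervals are 95% intervals of that fit with 12.7 degrees of freedom. DESeq2 1.42.0 and limma 3.58.1 (voom) were alternatives. Deviations are log2 CPM with a prior count of 2. Ribosomal RNA and the other of 185 entries at several loci stayed in the library sizes and tests, and 1 alternative left them out. Counts of replicates differed by more than sampling noise (chi-square per gene from 7.52 to 20.6), which shows only that no pair holds repeated values of 1 library. Each library counted as 1 sample, and an alternative summed libraries of 1 clone.

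Gene lists, the genes named and the tests were chosen with earlier results of these data known. Named were Runx1 and genes near it (window in the text), the 10 genes with the smallest p in each direction, and of each list the 2 most abundant members, the smallest p in each direction, the plotted lineage markers and Y-linked genes. Vwf, Zfpm1, Stat5b, Mecom, Pcna, Aurka, Mcm2, Mcm7 and Cenpf were named after their values were seen. Library totals without a factor, and the fit without B9.3 and E9.1, were alternatives chosen after seeing the data. Mesoderm and HPCs share clones, yet same-clone deviations over 9170 genes correlated between -0.07 and 0.19. Promoter-specific counts are not analysed here. Some genes that this rule names are not reported here.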

Additional observations from a re-analysis of the deposited data

Results flagged for a closer look

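In groups of 4 libraries, a wild-type library was set apart where its distance to the nearest other library was over Dixon's 95% limit as a share of the group's range. The groups of 3 P1-CTCF-KO libraries are too small for this. Of 187 wild-type values 9 passed, where chance gives about 1 in 20. The cardiac and mesenchyme list stood at a median deviation of 3.12 in B9.3 against -1.11 to -0.82 in the other libraries, and with it Col1a1 at 50.1 CPM against 0.784 to 2.06, Col1a2 at 26.6 CPM against 0.122 to 0.447, and the imprinted list at 0.44 against -0.25 to -0.17. B9.3-2, of the same clone, stood apart for Cd44, an adhesion receptor, at 51.0 CPM against 33.2 to 36.0, for Rprl3, an RNase P-like RNA, at 12.8 CPM against 3.40 to 4.31, and for genes of chromosome X, at a median deviation of -0.11 against 0.04 in each of the others. C8.1 stood apart for Tet2, which oxidizes methylated DNA, at 9.33 CPM against 5.83 to 5.99, and for chromosome 4, at a median deviation of 0.039 against values just below 0.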

How the results depend on the processing

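Of 17 alternatives to the comparison of P1-CTCF-KO with wild-type HPCs, all gave 0 called genes, as did 17 for the difference between stages. Runx1 kept its direction in 16, with log2 fold changes from 0.17 to 0.67, and reversed to -0.18 with library totals. The genes bounded within 2-fold, 3135 in the fit reported, stayed within 1.5 times that number in 15 alternatives, and were 1006 with library totals and 1885 without the libraries B9.3 and E9.1, where fewer samples entered. With library totals, 13 of the 28 lists with tested members turned the sign of their median, against 0 with DESeq2's size factors. With no filter on low counts 5 lists turned. Leaving out E7.2 turned 7 lists and leaving out E7.1 turned 0. Leaving out any other library turned from 1 (without C8.1) to 4 (without B9.3, and without C6.1). At an unadjusted p under 0.05, leaving out 1 library gave 45 (without E7.1) to 179 (without C8.1) higher genes and 86 (without B9.3-2) to 232 lower ones, and using only the 7 libraries compared gave 206 higher. No block was possible within HPCs, as the genotypes share no clone, and the replicate block by clone for the difference between stages gave 0 calls. Counts outside ribosomal and multi-locus entries limited the depth, and the median bound of genes under 10 counts was 3.12-fold.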
